A study of Mus musculus with 22 samples.

Results

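The regions described here were stretches of adipocyte chromatin with an ATAC-seq peak in 3 of 3 lean libraries (C), in 0 of 3 obese libraries of the same age (H) and in 1 or more of 3 libraries taken after weight loss (HC). They were chosen by these peak calls, which are therefore a description and not a finding. Merging the peaks of all 22 libraries on chromosomes 1 to 19 gave 102995 regions, and 784 of them had this pattern. They are called reopened regions below. A further 312 regions were lost in the same way and had a peak in 0 of 3 HC libraries, so 1096 of the 24268 regions called in 3 of 3 C libraries were lost in H.

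ATAC-seq marks chromatin that is open enough for a transposase to insert sequencing adapters. Open sites at the start of a gene are promoters, and many of the open sites in introns and between genes are enhancers, where transcription factors bind and act on genes at a distance. In adipocytes such sites are held open by factors that include PPARG and C/EBP proteins, and high-fat feeding is known to reshape fat tissue by cell enlargement, loss of adipocyte gene expression and entry of immune cells.

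All nuclei came from the epididymal fat of male AdipoERCre x NuTRAP mice, in which tamoxifen activates Cre in adipocytes and a reporter then tags their nuclei with biotin for pull-down. Each library came from 1 animal, and all groups, controls included, carried both transgenes and had received tamoxifen. Lean mice of 18 weeks on chow formed group C (n = 3), and mice of that age after 12 weeks of high-fat diet formed H (n = 3). Mice returned to chow for 8 weeks after 12 weeks of high-fat diet formed HC (n = 3), at an age of 26 weeks, and CC_s (n = 3) was kept on chow to the same age. The long-term groups of 31 weeks were CC_l on chow (n = 2) and HH, which ate high-fat diet for 25 weeks (n = 3). Those of 39 weeks were CCC on chow (n = 2) and HHC, which had the 25 weeks of high-fat diet followed by 8 weeks of chow (n = 3). The chow of the last 8 weeks was another product than before, for controls too, so HHC differs from HH in age and chow as well as in weight loss. The choice of regions used 9 libraries, and the 10 libraries of the long-term arm and the 3 CC_s libraries took no part in it.

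The promoters of 8 of 8 defining adipocyte genes (Adipoq, Plin1, Lep, Fabp4, Cidec, Pparg, Lipe and Retn) had a peak in all 22 libraries. Their signal above the floor (the log2 scale defined below), summed over the 8 genes, was 46.74 in HHC 3, 48.53 in HC 3, 49.01 in CCC 2 and 49.53 in HH 1, and 52.44 to 55.50 in the other libraries. HC 3 and HHC 3 stood apart. They held the most regions (43037 and 41433, against 29500 to 34309 in the other libraries), yet called 69.8% and 66.3% of the regions called in 3 of 3 C, where the other libraries outside C called 82.5% to 97.7%. The main counts and means that rest on either library are also given without it, a choice made after the data had been seen. Reads were not used here, and a missing peak says that coverage stayed under the threshold of that library, not that the site was closed. Fewer nuclei with an open site and less opening per nucleus cannot be told apart.

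Sequences are shown for 6 regions that the results below turn on. They are those near Cd180 and at Slc22a18, Bnc2, Zbtb20 and Cyth4, which had the lowest p for lower signal in HH than in CC_l, and that in Itsn1, which had a peak in 3 of 3 HC libraries. Each is a stretch of the plus strand at the centre of the interval of highest coverage in C, from the RefSeq genome of build GRCm38, and none lies in an exon. Capitals mark matches, on either strand, to short core letters of factors that act in fat or blood cells.
Cd180, chr13:102533835-102534035: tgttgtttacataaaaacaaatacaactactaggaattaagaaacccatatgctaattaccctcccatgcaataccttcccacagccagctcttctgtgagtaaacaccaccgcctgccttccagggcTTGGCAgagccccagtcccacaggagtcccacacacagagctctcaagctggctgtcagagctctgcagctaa
Slc22a18, chr7:143478257-143478457: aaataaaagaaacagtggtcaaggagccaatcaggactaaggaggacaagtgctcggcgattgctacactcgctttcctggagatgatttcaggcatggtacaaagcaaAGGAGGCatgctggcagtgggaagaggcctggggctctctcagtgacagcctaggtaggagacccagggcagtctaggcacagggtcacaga
Bnc2, chr4:84479649-84479849: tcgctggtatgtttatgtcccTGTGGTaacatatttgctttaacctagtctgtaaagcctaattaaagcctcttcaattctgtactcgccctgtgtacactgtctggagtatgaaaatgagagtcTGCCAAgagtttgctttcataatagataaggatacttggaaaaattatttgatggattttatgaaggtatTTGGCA
Zbtb20, chr16:43303313-43303513: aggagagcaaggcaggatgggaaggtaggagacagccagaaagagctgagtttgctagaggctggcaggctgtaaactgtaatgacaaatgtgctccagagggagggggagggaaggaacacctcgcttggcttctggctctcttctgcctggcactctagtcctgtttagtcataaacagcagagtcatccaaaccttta
Cyth4, chr15:78647846-78648046: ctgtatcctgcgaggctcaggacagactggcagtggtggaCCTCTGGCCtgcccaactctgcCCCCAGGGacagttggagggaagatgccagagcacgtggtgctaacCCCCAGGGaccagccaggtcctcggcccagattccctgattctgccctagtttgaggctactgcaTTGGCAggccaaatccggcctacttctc
Itsn1, chr16:91882228-91882428: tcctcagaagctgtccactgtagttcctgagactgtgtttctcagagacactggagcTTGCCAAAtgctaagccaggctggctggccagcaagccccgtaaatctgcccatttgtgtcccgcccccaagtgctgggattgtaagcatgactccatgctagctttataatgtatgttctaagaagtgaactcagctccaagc
The window near Cd180 held the NFI letters TTGGCA, and that at Slc22a18 held the core letters of CTCF, AGGNGGC. The Bnc2 window held the NFI letters on each strand and the RUNX letters TGTGGT. The Cyth4 window held the PPAR-RXR core GGNCANAGG on the minus strand, the EBF letters CCCNNGGG at 2 places and the NFI letters. The Itsn1 window held a C/EBP match, TTGCNNAA, that overlaps the NFI letters of the minus strand. The Zbtb20 window held no match to any of the 10 sets of letters searched.

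Searched on both strands in 300 bases around the centre of each region, these letters are compared between reopened regions and all regions called in 3 of 3 C, which lie at promoters more often. C/EBP letters were in 19.5% of reopened regions, 22.5% of regions called in 3 of 3 C and 18.2% of all regions. NFI letters were in 30.2%, 26.5% and 21.4%, and EBF letters in 15.9%, 14.8% and 9.79%. The CTCF core was in 28.6%, 27.7% and 18.9%. The AP-1 letters TGANTCA were in 9.57%, 9.42% and 10.1%, and the PPAR-RXR core in 9.82%, 10.5% and 8.60%. The glucocorticoid receptor core ACANNNTGT was in 10.2%, 9.14% and 10.5%, and the RUNX letters in 17.3%, 16.4% and 20.1%. Among the rarest, the PU.1 letters GAGGAAGT were in 1.79%, 2.12% and 2.22%. The ETS letters CCGGAAGT, which lie mostly at promoters, were in 1.02%, 3.41% and 1.00%. Away from promoters C/EBP letters were in 21.7% of reopened regions and 29.6% of regions called in 3 of 3 C, and AP-1 letters in 9.74% and 12.1%. The CTCF core was in 25.9% and 19.6% there, EBF letters in 15.1% and 12.4%, and NFI letters in 32.2% and 34.2%. The ETS letters, at 0.348% and 0.366%, were about as rare in both sets once promoters were set aside. A match is a string of letters and not a bound site.

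Most reopened regions lay away from promoters, and they were narrower and weaker than most regions called in 3 of 3 C. Their median width was 4888 bp (quartiles 3797 and 6834), against 8478 bp for regions called in 3 of 3 C. Of the 784 regions, 26.7% (209) overlapped a promoter, a window of 2000 bp on each side of a transcription start site, against 50.4% of regions called in 3 of 3 C. The share was 18.6% among the 312 regions with no peak in HC. All 102995 regions had a median width of 3044 bp and a promoter share of 23.0%, so reopened regions were wider than these. The 1382 regions called in 3 of 3 C, in 1 of 3 H and in 1 or more HC libraries, the set just outside the choice, were close in both, with 5196 bp and 27.2%. The point of highest coverage lay in an intron in 388 regions, in an exon in 63 and between genes in 333, and its median distance to a start site was 15000 bp, against 7578 bp. By HC libraries, the promoter share was 20.2% of the 321 regions with a peak in 1, 27.9% of the 358 in 2 and 41.9% of the 105 in 3. The share of regions called in 3 of 3 C that were reopened ran from 1.58% on chromosome 19 to 4.65% on chromosome 15.

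**Figure D1:**
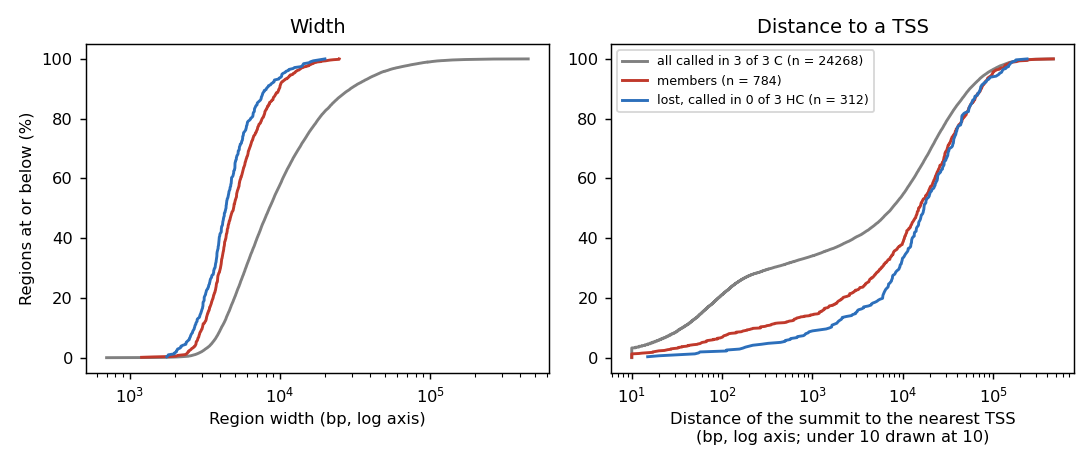
Cumulative share of regions by width (left) and by distance from the point of highest coverage to the nearest transcription start site (TSS, right), both on log axes in bp, for reopened regions, lost regions with no peak in HC and all regions called in 3 of 3 C. The reopened regions lie left of all C regions in width (medians 4888 and 8478 bp), and fewer of them lie near a start site (median distances 15000 and 7578 bp).

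Signal is given below as a rank-mapped log2 total signal. Total signal is the coverage summed over a peak, and in each library the 29500 strongest regions took the mean log2 value of their rank over all libraries. All other regions, without a peak or below that rank, sat at a floor of 14.01. The median signal in C was 14.47 for reopened regions and 15.60 for regions called in 3 of 3 C. When the latter were split by C signal into parts of 25% each, the lowest part held 633 reopened regions (80.7%), the next 133, the next 18 and the top part 0. Around the limits of the choice the values were close. The median in C was 14.35, 14.52 and 14.60 for regions with a peak in 1, 2 and 3 HC libraries. It was 14.35 for the 312 regions with no peak in HC and 14.60 for 1382 regions with a peak in 1 of 3 H libraries.

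The HC calls, which the choice used, were uneven between animals. HC 2 called 625 reopened regions (79.7%), HC 1 458 (58.4%) and HC 3 269 (34.3%), and of all regions called in 3 of 3 C they called 94.7%, 92.0% and 69.8%, so HC 3 was low there too. HC 1 and HC 2 shared 259 regions that HC 3 lacked, 198 were called by HC 2 alone, 65 by HC 3 alone and 58 by HC 1 alone, and 105 were called by all 3. Without HC 3 the choice would hold 719 regions, with a median width of 4911 bp and 27.1% at promoters. The number of regions rested on other libraries too: it was 1695 when H 3 was left out of the choice and 1410 when C 1 was left out.

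The 5 regions of highest mean signal in HC among those called in 3 of 3 HC lay at Slc16a6, 4930503F20Rik, Onecut2, Gpr37l1 and Zkscan17. The strongest lay at Slc16a6, a member of the monocarboxylate transporter family, on chr11:109465110-109475580, over an intron and a promoter. Its signal was 15.34, 16.18 and 15.96 in C and 15.82, 15.97 and 16.11 in HC. Both sets of values took part in the choice, so nothing is read from their overlap. In the long-term arm it was 14.87 and 15.81 in CC_l, 15.42, 14.27 and 14.01 in HH, 16.15 and 16.37 in CCC, and 16.35, 14.81 and 14.01 in HHC. HH and CC_l overlapped there, as did HHC and HH. The region at Onecut2, a homeobox transcription factor, had 16.02, 15.38 and 15.07 in HC, and in HH it was at the floor in 2 libraries and at 15.22 in HH 1.

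Whether the same regions lose their peaks in a separate cohort was read from the long-term arm. Chow controls that took no part in the choice kept most of the regions. CC_s called 70.9%, 84.1% and 84.6% of them, CC_l 72.1% and 88.4%, and CCC 81.0% and 71.3%. HH called 36.6%, 45.8% and 25.6%, so every HH library lay below every control library. HHC called 51.0%, 56.1% and 28.8%, below both CCC libraries and overlapping the range of HH, although HHC 1 and HHC 2 lay above every HH library. For all regions called in 3 of 3 C the shares were 94.7% and 97.7% in CC_l, 82.5%, 92.3% and 90.5% in HH, and in HHC 66.3% in HHC 3 and 89.4% or more in the others. In every long-term library the reopened regions were thus called less often than that background, and the gap was widest in HH.

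**Figure D2:**
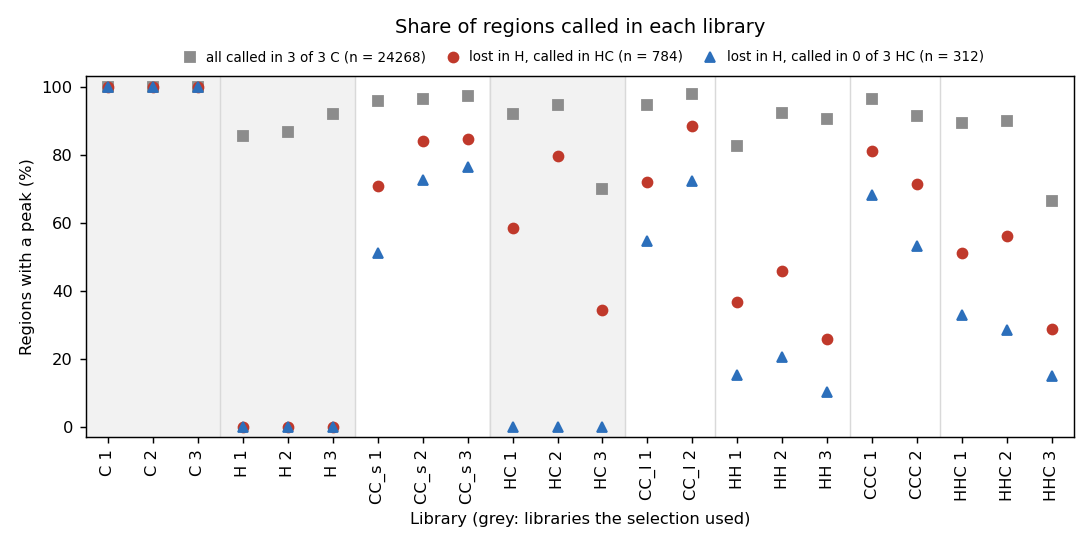
Share of regions with a peak (percent, y axis) in each of the 22 libraries (x axis) for reopened regions (circles), lost regions with no peak in HC (triangles) and all regions called in 3 of 3 C (squares). Grey shading marks the libraries that chose the regions, and in the unshaded ones reopened regions run from 25.6% in HH 3 to 88.4% in CC_l 2.

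Of the 784 reopened regions, 143 (18.2%) had a peak in 2 of 2 CC_l libraries and in 0 of 3 HH libraries. Among all 24268 regions called in 3 of 3 C that pattern was seen in 454 (1.87%), which include the 143. The gap was also seen among regions of low signal. Within the lowest 25% by C signal the share was 18.5% of 633 reopened regions and 4.51% of 5434 other regions. It was higher still, 26.9%, among the 312 lost regions with no peak in HC. The share was 26.0%, 29.5% and 22.8% when HH 1, HH 2 or HH 3 was left out and 26.4% without CC_l 1, and that of all regions called in 3 of 3 C, which such looser patterns also raise, was then 2.82%, 3.39%, 3.09% and 2.62%. When HC 3 was left out of the choice it was 17.8% (128 regions). A peak in all CC_l and all HH libraries was seen at 48 reopened regions (6.12%), against 75.7% of regions called in 3 of 3 C. The opposite pattern, 0 of 2 CC_l and 3 of 3 HH, was seen at 1 (0.128%), a share near the 0.152% of regions called in 3 of 3 C.

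The 143 regions did not return in all HHC animals. A peak was present in 1 or more HHC libraries at 106 of them (74.1%), in 2 or more at 58 (40.6%) and in 3 at 9 (6.29%). Of all 454 such regions 66.7%, 31.1% and 5.07% did so, and of the 84 that had no peak in HC 48.8%, 15.5% and 1.19%. Without HHC 3 a peak was present in 1 or more HHC libraries at 96 of the 143 (67.1%) and in both at 38 (26.6%), against 60.1% and 20.9% of the 454. Across all 784 regions, 311 (39.7%) had a peak in more HHC than HH libraries, 177 (22.6%) in fewer and 296 in as many. The 312 lost regions with no peak in HC had 35.3% in more and 14.1% in fewer, so this was not particular to the reopened regions. For regions called in 3 of 3 C these shares were 7.70% in more and 24.4% in fewer, but 77.2% of those already had a peak in 3 of 3 HH libraries and could not gain one, against 7.14% of the reopened regions. From the same start the shares were closer. Of the 242 reopened regions with a peak in 0 of 3 HH, 67.4% had one in 1 or more HHC libraries, 33.1% in 2 or more and 4.55% in 3 (11 regions), against 59.1%, 25.2% and 4.22% of the 782 regions called in 3 of 3 C with that start. Of those with a peak in 1 of 3 HH, 39.9% of 293 reopened regions and 45.5% of 1320 regions called in 3 of 3 C had more in HHC, and of those with a peak in 2 of 3 HH, 16.1% of 193 and 23.6% of 3421. Beside regions with as many HH peaks, the share of reopened regions that gained peaks was thus higher from 0 and lower from 1 and from 2. A peak in 2 of 2 CCC and 0 of 3 HHC libraries was seen at 67 (8.55%), against 1.97%.

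Leaving out HHC 3 also changes what the patterns ask for, since 2 HHC libraries then stand for 3. Without it 442 reopened regions (56.4%) had a peak in a larger share of HHC than of HH libraries and 202 (25.8%) in a smaller share. Of the regions called in 3 of 3 C, 14.7% had it in a larger share and 10.6% in a smaller one, with the same limit on what could be gained. Both CCC libraries and neither HHC 1 nor HHC 2 had one at 94 (12.0%), against 2.47%.

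The number of HC libraries with a peak ran parallel to the long-term calls. HH libraries called a mean of 27.2% ± 6.77 (SD, n = 3), 39.3% ± 11.5 and 51.7% ± 16.4 of the regions with a peak in 1, 2 and 3 HC libraries. HHC libraries called 36.3% ± 9.94 (SD, n = 3), 47.0% ± 17.9 and 67.0% ± 17.7, and without HHC 3 42.1% ± 1.32 (SD, n = 2), 57.3% ± 3.56 and 76.2% ± 10.8. CC_l libraries called 74.1% ± 12.8 (SD, n = 2), 83.0% ± 11.1 and 89.5% ± 9.43, so controls rose in the same order. With HC 3 and HHC 3 both left out, HHC 1 and HHC 2 called 46.2% ± 3.98 (SD, n = 2) of the 355 regions with a peak in 1 of HC 1 and HC 2, and 64.6% ± 4.66 of the 364 with a peak in both. At promoters, 42.9% ± 16.0 of 209 reopened regions were called in HH and 56.6% ± 13.7 in HHC. Away from promoters it was 33.5% ± 8.85 and 41.2% ± 14.8 of 575 regions (SD, n = 3 for each), and these ranges overlap. Without HHC 3 the HHC means were 64.4% ± 3.72 at promoters and 49.7% ± 3.57 away from them (SD, n = 2). All regions called in 3 of 3 C had the same order, with 94.4% in HH and 91.4% in HHC at promoters and 82.4% and 72.3% away from them. The 65 regions called by HC 3 alone were called at 21.0% ± 14.9 in HH and 32.8% ± 3.20 in HHC, and the other 719 at 37.4% ± 10.1 and 46.5% ± 16.0. Without HHC 3 the HHC means of the 65 and the 719 were 32.3% ± 4.35 and 55.5% ± 4.33 (SD, n = 2).

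Markers of mesothelium, the cell layer that covers epididymal fat, were lower in H than in C and in HH than in CC_l with Wt1 included, but HH overlapped CCC. Of 10 mesothelial promoters, 2 to 5 had a peak in C libraries, 0 to 1 in H, 2 to 4 in CC_s and 2 to 4 in HC. In the long-term arm 3 had a peak in both CC_l libraries, 0 to 2 in HH, 1 to 4 in CCC and 2 to 7 in HHC. The signal above the floor of the merged regions that overlap these promoters, summed over the list, includes peaks elsewhere in such a region and so exceeds 0 also in libraries with no peak at any of the promoters. It was 9.34 to 12.25 in C, 7.22 to 7.53 in H, 9.14 to 11.62 in CC_s and 9.84 to 12.31 in HC. In the long-term arm it was 10.91 to 11.19 in CC_l, 7.44 to 9.80 in HH, 9.21 to 10.13 in CCC and 10.13 to 12.37 in HHC, and HH 1 exceeded CCC 1. Bnc1, Gpm6a and Upk1b had no promoter peak in any library. Of the 784 reopened regions, 1 was assigned to a gene of the list, Wt1, and lies at its promoter. Its calls in C and H were set by the choice. Besides Wt1, C 3 had a promoter peak at Lrrn4 alone, while H 2 had Krt19 alone and H 3 Krt8 alone. Both CC_l libraries had Krt8 and Lrrn4 besides Wt1, and HH 2 had these as well. Without Wt1 the peak counts of C and H, and of CC_l and HH, thus overlap. A list of 12 epithelial genes, picked after the values had been seen, had 3 to 4 promoter peaks in C, 2 to 4 in H, 4 to 5 in CC_l and 0 to 5 in HH, with no peak at Epcam or Cdh1 in any library. This list too holds a gene with 1 reopened region, Esrp1.

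The promoters of other cell types were counted in the same way. Of 14 macrophage promoters, 2 to 4 had a peak in C, 3 to 5 in H, 2 to 4 in CC_s, 3 to 4 in CC_l, 2 to 6 in HH and 3 to 4 in CCC. HC 3 had 8, against 3 and 2 in HC 1 and HC 2, and HHC 1 and HHC 3 had 9 and 6, against 3 in HHC 2. Of 12 promoters of progenitors and fibroblasts, 6 to 7 had a peak in C and in H, 6 to 8 in CC_s and in HC, 6 in both CC_l libraries, 5 to 10 in HH, 6 to 9 in CCC and 9 to 10 in HHC. Of 12 endothelial promoters 12 had a peak in HH 1, 8 in HHC 3, 7 in CCC 2 and 5 in HC 3, against 1 to 4 in the other libraries. Lymphocyte promoters had 1 to 3 peaks of 12 in all libraries. As a mark of enrichment, the median maximum signal of a library's peaks was divided by the lowest, which gave 6.82 to 8.92 in C, 4.70 to 6.40 in H, 7.30 to 7.42 in CC_s and 6.50, 6.25 and 2.43 in HC. It was 4.67 and 7.30 in CC_l, 3.75 to 6.20 in HH, 8.20 and 3.67 in CCC, and 4.25, 6.42 and 2.25 in HHC. The lowest values were thus those of HC 3 and HHC 3. The part of other cells and of enrichment in the peak calls was not tested.

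The signal was compared by limma across all regions above the floor in enough libraries. Between HH and CC_l 566 of the 784 reopened regions were tested. Of these, 376 were above the floor in both groups, 176 passed through CC_l alone and 14 through HH alone, and a region that passes through a single group has to differ, so counts over them are a description. At p under 0.01 with a log2 difference beyond 1, with no adjustment, 32 reopened regions were lower in HH (5.65% of those tested), against 1.36% of all 32964 regions tested. None was higher, against 1.34%. The filter weighs on this, since 31.1% of the reopened regions tested were at the floor in all HH libraries, against 3.94% of all regions tested. Among those above the floor in both groups, a restriction added after the data had been seen, 15 of 376 reopened regions (3.99%) were lower, against 1.23% of all, and the median differences were -0.24 and -0.06. No region of any kind passed an adjusted p of 0.05 (0% of those tested), where the smallest adjusted p from limma was 0.161. An unadjusted p under 0.05 was seen at 187 reopened regions (33.0%), against 13.7% of all regions tested. Among those above the floor in both groups it was 75 (19.9%), against 11.8%. The count of 32 fell to 17 (3.00%) without HH 2 and to 17 (3.00%) without HH 3, and the share of all regions tested fell to 0.804% and 1.05%. The median difference of the tested reopened regions was -0.30, and it was -0.03 over all regions tested.

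The 32 regions, chosen for high signal in CC_l and low signal in HH, were called in other chow controls about as often as regions in general. All 32 were called in 3 of 3 CC_s libraries and 29 in 2 of 2 CCC libraries, where 92.1% and 89.7% of regions called in 3 of 3 C were. In HH 9 had no peak, 14 had a peak in 1 library, 7 in 2 and 2 in 3, which follows from how the 32 were chosen. A peak in at most 1 HH library was thus seen at 23 of them, and at 2102 of the 24268 regions called in 3 of 3 C. In HHC 21 (65.6%) had a peak in 2 or more libraries and 5 in none, and of all regions called in 3 of 3 C 87.8% had a peak in 2 or more. Beyond the named regions they included sites at Cacna1c, a calcium channel subunit (-1.96), Pax5, a B-cell transcription factor (-1.71), Kcnd3, a potassium channel (-1.68), Npas2, a clock gene (-1.41), and Dapk2, a protein kinase (-1.05), where the values are log2 differences and the genes were picked after they were seen. A promoter lay in 5 of the 32.

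The region of smallest p lay between genes, 159623 bp from Cd180, the nearest coding gene and a Toll-like receptor homologue of B cells, on chr13:102525012-102542691. Its signal was 15.66, 16.05 and 15.48 in C, 15.97 and 15.89 in CC_l, 16.04 and 15.98 in CCC, and at the floor in all H and all HH libraries. HHC 1 and HHC 2, at 15.78 and 15.89, stood just below CCC, and HHC 3 was at the floor. In HC, HC 2 had 15.25 and the other two were at the floor. The difference between HH and CC_l, -1.93 (SE 0.29, limma adjusted p = 0.161), is measured from the floor and depends on it. HHC and CCC differed by -0.79 (SE 0.66, limma adjusted p = 0.801), where HHC 3 alone was far below.

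Slc22a18, an imprinted transporter gene, had a region over an intron and a promoter on chr7:143472222-143484888. It had 15.34 and 15.17 in CC_l, the floor in 3 of 3 HH libraries, 15.55 and 15.67 in CCC, and 14.33, 14.88 and 14.01 in HHC. All HHC values lay below both CCC values there, and the difference was -1.20 (SE 0.49, limma adjusted p = 0.801). That between HH and CC_l was -1.25 (SE 0.22, limma adjusted p = 0.161). In an intron of Bnc2, a zinc-finger gene, lay the widest reopened region, 24795 bp on chr4:84473571-84498365. It had 15.87 and 15.64 in CC_l and 14.01, 14.01 and 14.12 in HH, a difference of -1.71 (SE 0.28, limma adjusted p = 0.161) that was -0.52 with maximum in place of total signal. It came back little, with 14.01, 14.03 and 14.01 in HC and 14.57, 14.01 and 14.01 in HHC, and in C it varied between 14.12 and 15.94.

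An intron of Zbtb20, a transcriptional repressor, held a region on chr16:43295882-43311358. Its signal was 15.34 and 15.27 in CC_l and 14.01, 14.04 and 14.01 in HH, although 3 of 3 HH libraries had a peak there. In HHC it was 15.61, 15.48 and 14.01, and in CCC 16.24 and 16.02. HHC 1 and HHC 2 lay above every HH value and below both CCC values. Some 50893 bp from Cyth4, which encodes an exchange factor for ARF GTPases, the region on chr15:78645262-78649819 had 15.13 and 15.17 in CC_l and the floor in all HH libraries. It had 15.09, 15.04 and 14.01 in HHC and 15.23 and 15.63 in CCC, again with HHC 3 at the floor. Both regions had an adjusted p of 0.161 between HH and CC_l by limma, with differences of -1.28 (SE 0.22) and -1.14 (SE 0.20).

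Among the 58 regions with a peak in 2 of 2 CC_l, 0 of 3 HH and 2 or more of 3 HHC libraries, the 10 of highest signal in C were Cd180 and Slc22a18 above and 8 more. In an intron of Itsn1, an endocytic scaffold gene, the region on chr16:91880148-91888938 had 15.48, 15.46 and 15.18 in C and 14.13, 14.70 and 14.01 in HC. It had 15.01 and 14.23 in CC_l, 15.50 and 15.03 in CCC, and 14.65, 14.96 and 14.01 in HHC. All HHC values lay below those of CCC. The region on chr1:106007323-106016184, in an intron of Zcchc2, had 15.29, 15.46 and 15.79 in C, and its HHC values of 14.34, 14.01 and 14.53 lay below 15.54 and 15.11 in CCC.

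Neighbouring regions at Nat8f5 and Nat8f4, genes of an acetyltransferase family, lay at promoters on chr6:85818496-85827006 and chr6:85903023-85909422. Such genes are close copies of each other, so reads may be shared between them and both are uncertain. Nat8f5 had 14.88, 15.27 and 15.43 in C, and Nat8f4 had 15.19, 15.20 and 14.98. In HHC 3 Nat8f4 was at 15.13 and Nat8f5 at the floor. Near Tprg, the region on chr16:25244214-25259244 had 15.50 and 15.41 in HC 1 and HC 3 and 14.23 to 15.52 in C, groups that took part in the choice. The promoter region of 2700046A07Rik had 14.01, 15.22 and 16.16 in HHC, so HHC 3 was the highest there. The remaining regions, at Twsg1, whose protein binds BMPs in the matrix, and near Gm9747, were at the floor in all HH libraries and in 1 HHC library each.

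**Figure D3:**
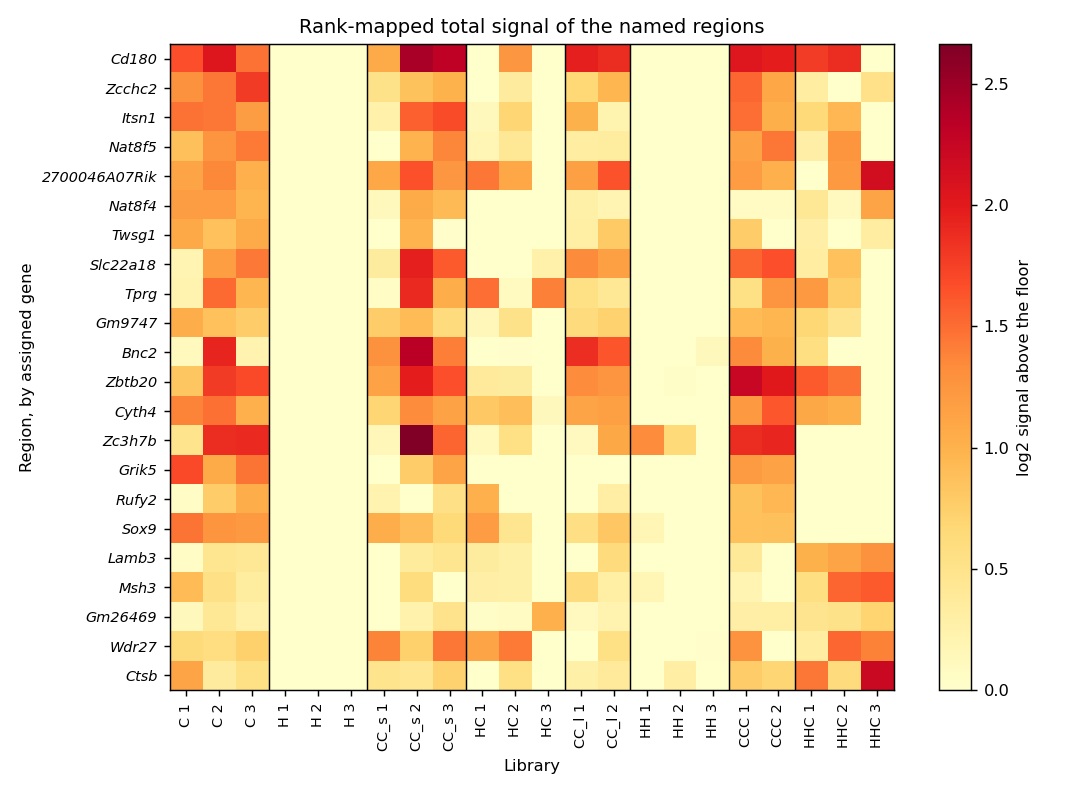
Rank-mapped log2 total signal above the floor (colour) in each of the 22 libraries (x axis) for the regions named for high C signal or for small p (y axis, by assigned gene). The H columns are at the floor by the choice of regions, the HH columns are at or near it for the regions from Cd180 to Cyth4, which were named for missing peaks or low signal in HH, and HHC 3 is at the floor at Cd180, Slc22a18, Zbtb20 and Cyth4.

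Between HHC and CCC 626 reopened regions were tested, 66 of which passed through CCC alone and 23 through HHC alone. Of them 8 (1.28%) were lower in HHC, against 0.582% of all 32119 regions tested, and 0 were higher, against 0.118%. Among those above the floor in both groups it was 2 of 537 (0.372%), against 0.399% of all, so at these limits the excess lay with regions that were at the floor in HHC. At the adjusted limit 0 regions passed (0% of all), with a smallest adjusted p of 0.751 by limma. An unadjusted p under 0.05 was seen at 106 reopened regions (16.9%), against 6.20% of all regions tested. Among those above the floor in both groups it was 62 (11.5%), against 4.70%. The count of 8 was 1 (0.160%) without HHC 1, 0 without HHC 2, 13 (2.08%) without HHC 3 and 25 (3.99%) without CCC 1. The share of all regions tested was then 0.146%, 0.140%, 0.769% and 1.15%, so without HHC 1 or HHC 2 the share of reopened regions was near it or below it. The median difference was -0.19, against -0.06 over all tested, and without HHC 3 -0.14, against 0.012.

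Regions of small p here were at the floor after weight loss. At the promoter of Zc3h7b, a zinc-finger gene, CCC had 15.88 and 15.93 and all HHC libraries were at the floor, whereas HH had 15.34, 14.65 and 14.01, so HH 1 and HH 2 exceeded every HHC library. Grik5, a kainate receptor subunit gene, had 15.21 and 15.15 in CCC and the floor in CC_l, HH and HHC alike. The regions at Rufy2 and, 144685 bp away, near Sox9, a transcription factor of cartilage, were at the floor in all HHC libraries, with 14.87 and 14.96 and with 14.88 and 14.88 in CCC. The fitted differences were -1.90 (SE 0.40), -1.17 (SE 0.27), -0.91 (SE 0.21) and -0.88 (SE 0.21) in this order, all with a limma adjusted p of 0.751 and all dependent on the floor. With maximum signal they were -1.17, -0.84, -0.41 and -1.64.

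Between HHC and HH 274 reopened regions were tested, of which 9 passed through HHC alone, and 510 were not tested. A region at the floor in all HH libraries was tested only if all 3 HHC libraries were above it. Most of the 242 reopened regions with a peak in 0 of 3 HH libraries were thus left out, and their return is not measured here. A single region, at Lamb3, was higher in HHC (0.365%), where 0.130% of all 28446 regions tested were, and it is one of these 9, so nothing is read from its share. Among the 265 above the floor in both groups 0 were higher, against 0.108% of all. None was lower, against 0.682%. At the adjusted limit 0 regions passed (0% of all), with a smallest adjusted p of 0.586 over all regions and of 0.8 over the reopened ones by limma. There were 15 reopened regions (5.47%) with an unadjusted p under 0.05, against 5.89% of all regions tested in either direction. All 15 were higher in HHC, and 1.52% of all regions tested were higher at that p. Among those above the floor in both groups it was 11 (4.15%), against 4.86% of all in either direction. The count of 1 was 10 (3.65%) without HHC 3, where 0.506% of all regions tested were higher, and 0 without any 1 of the HH libraries, where 0.0246% to 0.190% of all were. The median difference was 0.20 over the reopened regions tested and -0.07 over all tested, and without HHC 3 0.26 and 0.024.

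Lamb3, a laminin chain of epithelial basement membranes, had a promoter region on chr1:193205443-193211885 with 15.01, 15.12 and 15.30 in HHC and the floor in all HH libraries. Its HHC values exceeded those of CCC (14.39 and 14.01) and of C (14.07, 14.47 and 14.42). The difference of 1.14 (SE 0.29, limma adjusted p = 0.8) was measured from the floor. An intron of the mismatch repair gene Msh3 had 14.57, 15.55 and 15.61 in HHC and 14.19, 14.01 and 14.01 in HH, and CCC had 14.21 and 14.01. An intron of Wdr27 had 14.34, 15.54 and 15.40 in HHC and 14.01, 14.01 and 14.04 in HH. The region 18224 bp from Ctsb, a lysosomal protease gene, had 15.46, 14.62 and 16.23 in HHC and 14.01, 14.31 and 14.01 in HH. The promoter of Gm26469 had 14.48, 14.52 and 14.71 in HHC and the floor in HH. With maximum signal the difference was 0.019 at Ctsb in place of 1.33, 0.56 at Wdr27 in place of 1.08, and 1.33 at Gm26469 in place of 0.56. In these 5 regions the HHC values lay above all HH values, the pattern for which they were picked, and HHC 3 was the highest at 4 of them.

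**Figure D4:**
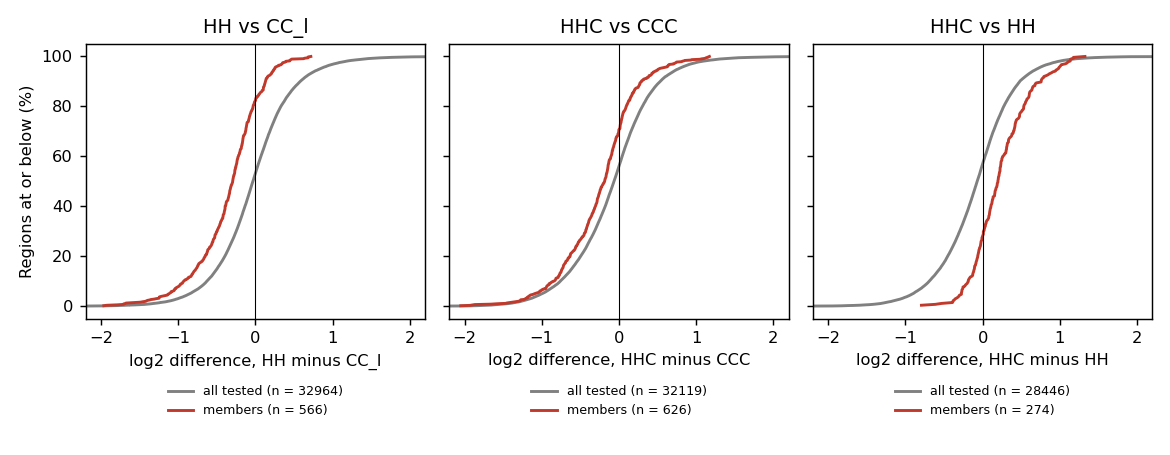
Cumulative share (percent, y axis) of the log2 signal differences (x axis) of HH minus CC_l, HHC minus CCC and HHC minus HH, for reopened regions and for all regions tested. The reopened regions lie left of all regions in the first pair (medians -0.30 and -0.03), slightly left in the next (-0.19 and -0.06) and right in the last (0.20 and -0.07), and each curve holds only regions that passed the filter on signal.

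The 784 regions were assigned to 714 genes, of which 655 had 1 region, 50 had 2, 7 had 3 and 2 had 4. The genes with 3 or 4 were picked after the counts were seen, so their shares are high by choice. Of all 24268 regions called in 3 of 3 C, 784 were reopened. Angpt1, a ligand that steadies blood vessels, had 4 of its 13 regions called in 3 of 3 C, and Nckap5 had 4 of 9. Prlr, the prolactin receptor, had 3 of 6, Sema5a, a semaphorin of axon guidance, 3 of 8, Gpatch2 3 of 4, and Negr1, a cell adhesion gene, 3 of 16. The strongest of the Prlr regions, on chr15:10208602-10222604, had 15.13, 15.60 and 16.04 in C, 15.13 and 15.19 in CC_l, and 14.01, 15.06 and 14.01 in HH, so HH lay below CC_l. It had 15.12 and 15.90 in CCC and 14.12, 14.25 and 14.01 in HHC, a difference of -1.38 (SE 0.42, limma adjusted p = 0.751) with no overlap. The 4 Angpt1 regions were all intronic, and in HH and HHC none of them was above the floor in more than 1 library. Of all reopened regions, 143 had another within 100000 bp. The same count was not made for other regions, so nothing is read from it.

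Gene lists for adipocyte functions held few of these regions, as they did of all regions. Lists of adipocyte identity and lipid storage (30 genes), insulin and adrenergic signalling (20), mitochondria and thermogenesis (18), branched-chain amino acid breakdown (14), and extracellular matrix and TGF-beta (27) had 1 region each. For these lists the regions called in 3 of 3 C numbered 37, 53, 36, 43 and 83. Lists of lipogenesis and glucose use (20 genes) and of inflammatory signalling (26) had 0 reopened regions, and 32 and 38 regions called in 3 of 3 C. The macrophage list (14 genes) had 1, the lymphocyte list (12) 0, the endothelial list (12) 1 and the progenitor and fibroblast list (12) 3, and they had 9, 2, 20 and 35 regions called in 3 of 3 C. With at most 3 regions a list, no share was read from them.

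The region on chr6:28973443-28976772, 84953 bp from Lep, which encodes leptin, had 14.07, 14.53 and 14.31 in C, 14.56 and 14.28 in CC_l and the floor in HH, and the difference of -0.41 (SE 0.13, limma adjusted p = 0.265) did not pass. In HHC it had 14.05, 14.03 and 14.01. The region 57479 bp from Ppargc1b, a coactivator of mitochondrial genes, had 14.98 and 14.33 in CC_l, the floor in HH and 14.24, 14.52 and 14.01 in HHC. That 266499 bp from Pik3r1, a regulatory subunit of PI3-kinase, had 14.72 and 14.08 in CC_l and the floor in HH. In Hibadh, a gene of valine breakdown, the values lay between 14.01 and 14.32 throughout the long-term arm. In an intron of Tgfbr2, a receptor of TGF-beta, the floor was met in both CC_l libraries, and HH 1 had 16.03, so its loss was not seen again in HH.

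Near Bmper, a BMP-binding matrix gene of the progenitor list, the region on chr9:23119083-23129832 had 16.25 and 16.24 in CC_l and 14.12, 15.56 and 14.01 in HH. HHC had 16.14, 15.84 and 14.01 there, and CCC 16.01 and 15.37, which overlap. The difference between HH and CC_l was -1.68 (SE 0.54, limma adjusted p = 0.263). The other Bmper region had 14.40 and 14.91 in CC_l, the floor in HH and 14.01, 14.57 and 16.27 in HHC. At the promoter of Wt1, a transcription factor of mesothelium, the region on chr2:105120963-105138358 had 16.07, 16.19 and 14.08 in C and 14.49, 14.01 and 17.08 in HC. It had 15.65 and 15.26 in CC_l, 15.21, 14.01 and 14.01 in HH, and 14.36, 14.26 and 17.33 in HHC, so HC 3 and HHC 3 were far above all other libraries. Regions nearest to Cdh5 (VE-cadherin), Dcn (decorin) and Ptprc (CD45) lay 24400, 319196 and 130546 bp from these genes, and no comparison of theirs passed.

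By position, the regions nearest to a start site lay 1 bp from those of Rictor, the scaffold of an mTOR complex, and of 1700010I14Rik. The Rictor region had 15.30, 15.59 and 14.01 in HC and 14.96, 16.00 and 15.95 in HHC, against 14.01, 15.58 and 14.01 in HH and 14.15 and 14.01 in CC_l, so it was not lower in HH. The farthest lay 464919 bp from Hao1 and, in an intron of Plxdc2, 295984 bp from any start site. The Plxdc2 region had 15.23 and 15.02 in CC_l and 14.01, 14.27 and 14.01 in HH, a difference of -1.03 (SE 0.24, limma adjusted p = 0.179), and 14.61, 14.85 and 14.01 in HHC. Next to Bnc2 in width, the Wdr37 region of 24741 bp had 14.40 and 14.81 in CC_l, and HH 1, at 15.00, exceeded both.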

How the data were processed

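ATAC-seq peak lists of 22 libraries were used, and reads were not. The authors trimmed reads with Trim Galore 0.6.6, aligned them with Bowtie2 2.4.4 to GRCm38, handled them with SAMtools 1.13 and bedtools 2.30 and called peaks per library with SEACR 1.3 (stringent, threshold 0.01), without pooling. The deposited values are the total signal (coverage summed over a peak) and the maximum signal, with no normalization stated, so depth is unknown and scales differ between libraries. A filter on problem regions is stated in the methods, but not whether it precedes these lists.

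Peaks that overlap by 1 bp or more were merged. A region was called in a library that had a peak over 1 bp or more of it. Regions were compared by limma 3.58.1 (R 4.3.3; lmFit and eBayes with a trend) on rank-mapped log2 total signal of the 2 groups compared, over all autosomal regions above the floor in at least 2 libraries (3 for HHC against HH), with Benjamini-Hochberg adjustment over all of them. Python 3.11.15, numpy 2.4.6 and pandas 2.3.3 did the rest, and the fit was tested on simulated data. Each library is 1 animal, so p-values measure the spread between animals, moderated by limma over all regions tested. A group at the floor in all its libraries has a spread of 0 set by the floor. There the SE rests largely on the moderated spread: near Cd180 the SD was 0.06 in CC_l and 0.00 in HH, and the SE was 0.29. Start sites are those of GENCODE vM21 basic. A region was assigned to the gene it overlaps, otherwise to that of the nearest start site, coding genes first. Marker levels are the highest signal of the regions at a gene's promoters.

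Regions were named by rule: the 10 of highest C signal among those with a peak in 2 of 2 CC_l, 0 of 3 HH and 2 or more HHC libraries, the 5 of smallest p in each comparison, the 5 of highest HC signal among those in 3 of 3 HC, those of a gene list (at most 3 a list), and the 2 widest, nearest to and farthest from a start site. The regions and lists were chosen with earlier results of these data known. A list of 9 genes named in the study's text held 0 reopened regions and only 10 regions called in 3 of 3 C, too few to read a share from. Of the regions this rule names, 1 is not reported here, and it stays in all counts. The number of columns left unmatched was 0.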

Additional observations from a re-analysis of the deposited data

How the results depend on the processing

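The counts of limma depended on most settings. Reopened regions lower in HH than in CC_l numbered 32 as reported, 79 with maximum in place of total signal, 19 with signal centred per library, 6 when signal in 4 libraries was required and 20 in 1 fit of all 10 long-term libraries. They numbered 0 at an adjusted p under 0.05, 186 at p under 0.05 with no fold limit, 13 from the 20000 strongest peaks of each library and 17 when peaks had to cover 50% of a region. As a share of the regions tested, 5.65% as reported, 79, 19, 6, 20, 13 and 17 were 13.3%, 2.84%, 5.31%, 3.53%, 3.87% and 5.30%, against 1.92%, 1.04%, 1.38%, 1.05%, 0.985% and 0.660% of all regions tested. Leaving out single libraries of the choice or of the comparison gave 17 to 96. Among regions above the floor in both groups, a restriction added later, the 3 counts were 15, 2 and 0. Reopened regions lower in HHC than in CCC numbered 8 as reported, then in the same order 35, 3, 2, 28, 0 and 104, with 0 at 50% covered, 2 when signal in 1 library was enough, 18 without a trend and 5 when 2 or more HC libraries were required. Their share of the regions tested, 1.28% against 0.582% of all as reported, was 0.457% against 0.697% with centred signal, below that of all regions, and 0% against 0.0612% at 50% covered. It was 4.47% against 1.20% in 1 fit of all 10 libraries. Single libraries gave 0 to 32. Reopened regions higher in HHC than in HH numbered 1 as reported, then 10, 6, 0, 3, 0 and 15, with 0 from the strongest peaks, 0 at 50% covered, 0 when signal in 1 library was enough and 2 without a trend. The share, 0.365% against 0.130%, was 3.31% against 0.112% with maximum signal and 1.70% against 0.328% with centred signal. At p under 0.05 with no fold limit it was 5.47% against 1.52%. Single libraries gave 0 to 10. With HC 3 and HHC 3 both left out, an alternative added after the data had been seen, it was 9. The cause of these shifts was not tested.

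With the replicate number as a block the counts were 25, 14 and 0 in place of 32, 8 and 1. As shares of the regions tested these were 4.42%, 2.24% and 0%, against 1.77%, 1.04% and 0.0457% of all regions tested. The numbers do not pair the animals: same-numbered libraries of HH and CC_l correlated at 0.0836 and 0.0577, of HHC and CCC at 0.195 and -0.122, and of HHC and HH at -0.286, 0.271 and -0.232 in their deviations from the group means.

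The share with a peak in 2 of 2 CC_l and 0 of 3 HH libraries was 18.2% as reported. Among regions called in 3 of 3 C it was 1.87%. At 50% covered these shares were 10.2% and 3.95%, so the gap was smaller. Without single libraries the share was 12.4% (H 3 left out) to 29.5% (HH 2 left out), against 1.87% and 3.39%. The number of regions, 784, was 463 when 2 or more HC libraries were required and 586 to 1695 without single libraries. The promoter share, 26.7%, was 17.5% with coding start sites only, 31.1% with 2 or more HC libraries, 50.4% at 50% covered and 46.4% from the strongest peaks, and in each of these it was below that of regions called in 3 of 3 C.

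Of 247 refits of 22 differences of named regions, 214 kept their side of the limits, 22 lost it, 11 gained it and 0 changed sign. In these regions a group was at or near the floor, and some refits alter only the p. The sign was thus largely fixed in advance, and nothing is read from its stability. Without HHC 3 the median difference over all tested regions turned from -0.064 to 0.012 in HHC against CCC and from -0.070 to 0.024 in HHC against HH, while those of the reopened regions kept their direction. Depth is unknown, and groups of 2 and 3 limit all of these comparisons.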

Other observations

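On the sex chromosomes, which the choice left out, 1613 regions lay on X, and 626 of them were called in 3 of 3 C. The same peak calls picked 35 of these as lost in H and called again in HC and 18 as lost with no peak in HC. On Y there were 49 regions, 9 of them called in 3 of 3 C, and 0 had either pattern.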
